A study of Mus musculus with 28 samples.

Results

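The genes described here are the mouse chemokines and chemokine receptors, measured in the liver of 28 male C57BL/6 mice. They were chosen by name alone: every gene row with a symbol of the CCL, CXCL, CX3CL, XCL, CCR, CXCR, CX3CR, XCR or ACKR families, or Ccrl2. The rule took 68 of 47719 rows, with 62 distinct symbols, of which 39 were ligands and 23 were receptors. Of these rows, 42 had enough signal to be tested in at least 1 of the 10 deposited comparisons, 33 were tested in all 10, and 26 were never tested. Among the 26, 11 were listed at 0 in both groups of every table, and 7 of the 68 rows lay on unplaced scaffolds and repeat genes such as Ccl21a, Ccl27a and Ccl19. Reads from such near-identical copies may be split, so those genes are uncertain.

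The animals fell into 7 groups of 4. The tropifexor groups received 0.1 mg/kg (low), 0.3 mg/kg (mid) or 0.9 mg/kg (high) by mouth once a day for 4 weeks, and the obeticholic acid (OCA) group received 25 mg/kg in the same way. Tropifexor, also called LJN452, and OCA both activate FXR, the nuclear receptor for bile acids; OCA is itself a modified bile acid and tropifexor is not. Each drug had its own vehicle group. The drug and vehicle groups were fed a NASH diet from about 6 weeks of age, for 26 weeks before dosing: fat gave 40% of its energy, and its weight was 22% fructose and 2% cholesterol. NASH, nonalcoholic steatohepatitis, is inflammation of a fatty liver. The lean control group was given low-fat food (10% of energy) free of fructose and cholesterol. The labels do not pair the 3 tropifexor doses with the names low, mid and high, so the doses were assigned in rising order. The treatment field of the vehicle samples names a drug, while their titles name vehicle; the titles were followed, and that these animals ate the NASH diet was read from how the study describes its design and names its comparisons.

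Chemokines are small secreted proteins that draw white blood cells along a gradient by activating receptors of the G protein-coupled family on those cells. In the liver, Kupffer cells, endothelium, stellate cells, bile duct cells and hepatocytes can all make them, and in steatohepatitis the CCL2 and CCR2 pair is known for bringing blood monocytes into the tissue. Many inflammatory chemokine genes are switched on by NF-kappaB or by interferons, whereas a homeostatic set is made constantly, and atypical receptors take up chemokines without the usual signal.

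Promoter sequence is shown for 4 ligands whose levels behaved differently across the groups: Cxcl1 and Cxcl10, which were lower at the mid and high tropifexor doses, and the nearby genes Ccl6 and Ccl9 on chromosome 11, of which Ccl6 fell and Ccl9 rose at the mid and high doses. Each is the 250 bases before the RefSeq start site, on the gene's own strand, from RefSeq for build GRCm38.p6, with kappaB matches (GGGA, any 4 bases, then CC, on either strand) in capitals.
Cxcl1, chr5:90890995-90891244, plus strand: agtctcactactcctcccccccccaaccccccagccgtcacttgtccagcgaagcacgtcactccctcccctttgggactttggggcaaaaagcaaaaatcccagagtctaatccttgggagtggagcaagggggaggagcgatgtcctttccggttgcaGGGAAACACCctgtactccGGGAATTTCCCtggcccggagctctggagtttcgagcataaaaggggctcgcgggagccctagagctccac
Cxcl10, chr5:92348890-92349139, minus strand: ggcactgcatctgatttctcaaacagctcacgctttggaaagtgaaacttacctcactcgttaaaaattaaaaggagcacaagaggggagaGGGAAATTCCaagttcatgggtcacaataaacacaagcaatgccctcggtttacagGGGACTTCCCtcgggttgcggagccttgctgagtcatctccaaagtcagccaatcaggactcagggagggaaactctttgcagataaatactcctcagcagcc
Ccl6, chr11:83593088-83593337, minus strand: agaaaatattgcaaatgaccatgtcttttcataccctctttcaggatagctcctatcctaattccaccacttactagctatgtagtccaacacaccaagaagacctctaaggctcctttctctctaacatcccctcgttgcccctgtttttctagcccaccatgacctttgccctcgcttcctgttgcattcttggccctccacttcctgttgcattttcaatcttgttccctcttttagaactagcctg
Ccl9, chr11:83578637-83578886, minus strand: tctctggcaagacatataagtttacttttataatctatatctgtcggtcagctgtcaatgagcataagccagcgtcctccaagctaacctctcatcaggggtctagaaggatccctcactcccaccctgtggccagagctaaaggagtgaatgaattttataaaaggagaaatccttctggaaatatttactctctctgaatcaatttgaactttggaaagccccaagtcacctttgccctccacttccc

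Cxcl1 held 3 kappaB matches, starting 90, 71 and 70 bases before the start (the last pair overlap, on opposite strands), and Cxcl10 held 2, at 159 and 103 bases before it. Cxcl10 also held an interferon-response element (ISRE, GAAA, any 2 bases, then GAAA, on either strand) at 213 bases before its start. Neither motif was found in these windows of Ccl6 and Ccl9. RefSeq promoters matched 46 of the 62 symbols, in 55 windows. Ccl2, Ccl4, Ccl5, Ccl7 and Ccl12 were among those without an entry, so their promoters were not searched. A kappaB match lay in 21 of those 55 windows, against 17.6% of 32851 mouse promoters of the same length, and an ISRE match in 3 of the 55, against 2.98%. Of the 28 symbols called in a vehicle or drug comparison below, 20 were matched. Among these 20, 8 held a kappaB match and 2 an ISRE match. Cxcl2, Cxcl9, Cxcl13, Ccl22, Ccr1 and Ackr2 were the other kappaB holders, and Cxcl14 the other ISRE holder. A match describes letters only; binding was not measured.

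**Figure D1:**
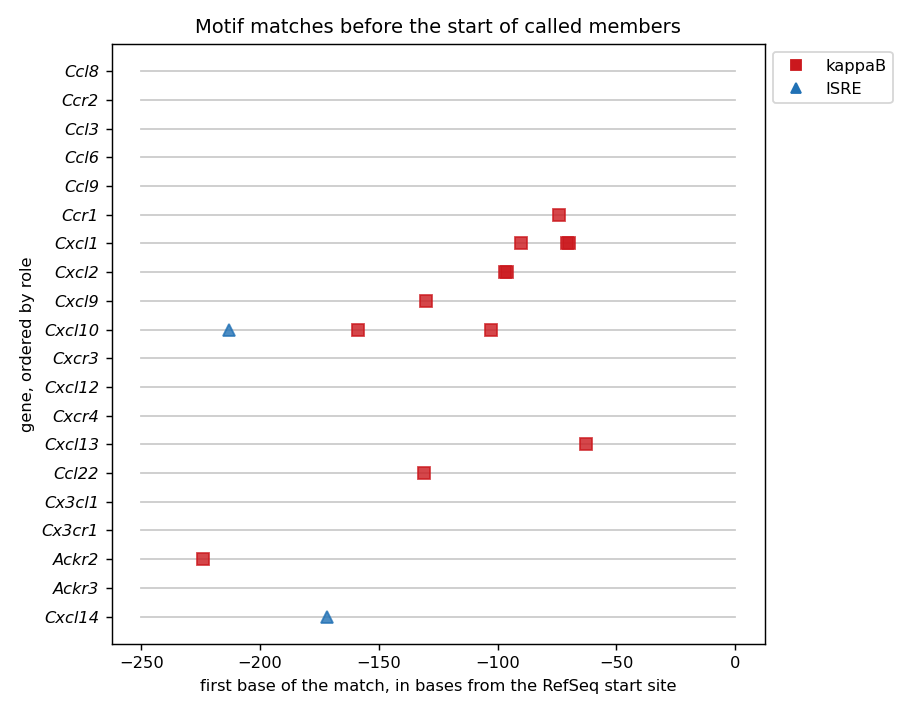
Motif matches in the 250 bases before the RefSeq start of the 20 called genes with a promoter entry; the x axis gives the first base of the match in bases from the start, squares are kappaB and triangles ISRE. The kappaB squares of Cxcl1 and Cxcl2 lie within 100 bases of the start, and 8 of the 20 genes carry a square.

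The deposited tables hold 1 FPKM value per group (fragments scaled to transcript length and library size), with no value per animal, so the values below are the authors' group values and carry no SD. A gene was called higher or lower where the authors' deposited q, which rests on the spread between animals, was under 0.05. Log2 ratios are of the group named first over the group named second in the same table. SE is the rescaled error of that ratio: the error implied by the deposited statistic, divided by 2.03 to 2.05 to match the deposited p. The undivided error is the wider error named below. Levels across all groups were brought to 1 lean-control scale, since the tables were scaled separately; the shifts were between -0.10 and 0.07 (log2). The sources used here do not say whether reads were counted by strand. Exons of 10 of the 42 tested genes overlap another gene, 9 of them on the other strand, so Cxcl10, Cxcl16, Cx3cr1, Cxcl11, Cxcr5, Xcl1, Ccl25, Ccl27a, Ackr1 and Ackr4 are less certain than the other 32. The 5 hepatocyte markers, which define the tissue, summed to at least 40793 FPKM in each group.

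The liver's chemokine output was dominated by a few ligands. Cxcl12, the constant ligand of CXCR4, was the highest of the family in lean control livers at 115 FPKM and made up 52.7% of the summed ligand FPKM there. Its share was 37.8% in tropifexor vehicle livers, 23.0% at the low dose, 32.2% at the mid dose and 26.4% at the high dose, and 36.9% after OCA and 35.2% in OCA vehicle. The ligand sum was 278 FPKM in tropifexor vehicle, 379 at the low dose, 269 at the mid dose and 282 at the high dose, and 258 after OCA, 320 in OCA vehicle and 217 in lean control. Receptor genes were far lower. Their sum was 23.0 FPKM in tropifexor vehicle, 22.0 at the low dose, 10.5 at the mid dose and 10.8 at the high dose, and 18.5 after OCA, 23.3 in OCA vehicle and 10.8 in lean control. The receptor sum at the mid and high doses thus stood at the lean level, while the ligand sum was above it, with Ccl9 alone at 120 FPKM at the mid dose and 136 FPKM at the high dose.

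**Figure D2:**
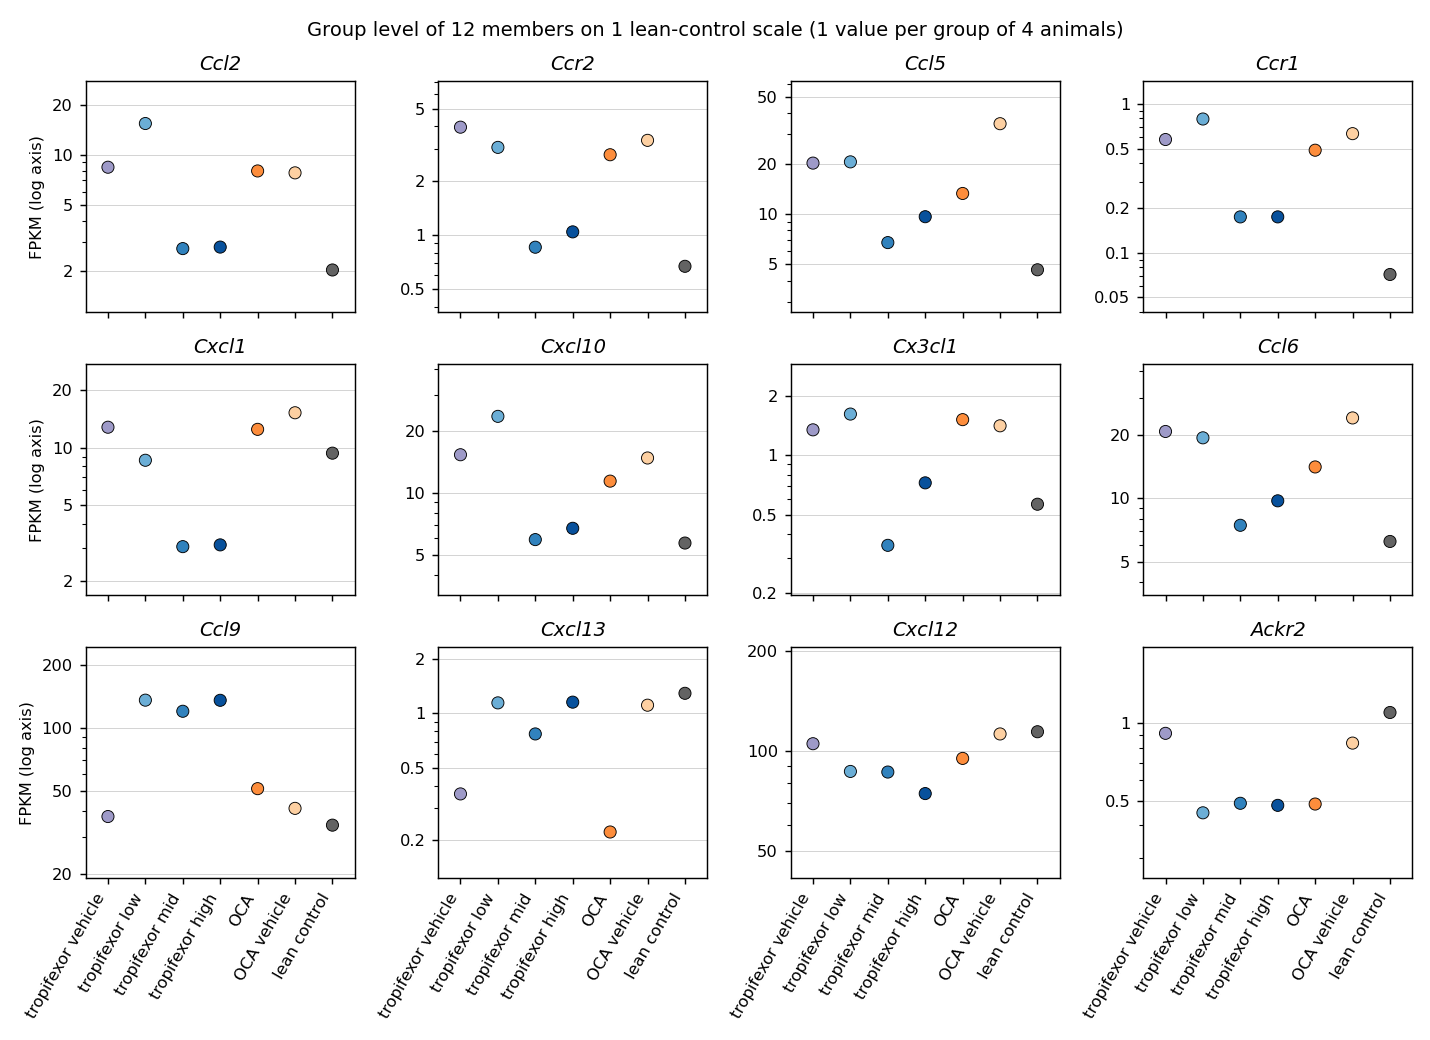
FPKM (log axis) of 12 chemokine and receptor genes in the 7 groups, on 1 lean-control scale; each point is the authors' value for a group of 4 animals, so there are no error bars. Ccl2, Ccr2, Ccl5, Ccl6 and Cxcl10 lie lower at the mid and high tropifexor doses than in both vehicle groups (Ccl5, Ccl6 and Ccr2 were still called above lean control at the high dose), whereas Ccl9 is at 120 to 136 FPKM at all 3 tropifexor doses.

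The members called in the diet comparisons were nearly all higher in the vehicle groups. In OCA vehicle livers 20 of 40 tested rows were called higher than in lean control and 0 lower, where 11.4% of 15774 genes were called higher and 6.56% lower. At an unadjusted p under 0.05 the count of lower members was 1. In tropifexor vehicle livers 19 of 39 were called higher and 1 lower, where 12.1% of 15484 genes were called higher and 8.53% lower. The median log2 ratio of the tested members was 1.13 for OCA vehicle and 1.26 for tropifexor vehicle, against 0.02 and 0.01 over all tested genes. Both comparisons use the same lean control animals. In whole liver, more cells of a type and more RNA per cell cannot be told apart. Hepatocyte markers were lower in the vehicle groups, with 1 of 5 called in OCA vehicle and 4 of 5 in tropifexor vehicle and sums of 46332 and 42176 FPKM, against 72182 FPKM in lean control; their part in the chemokine values was not tested.

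The count of called members ranged widely over the 4 drug comparisons. After OCA, 8 of 40 tested members were called lower than in OCA vehicle and 0 higher, where 2.23% of 15706 genes were called lower and 1.81% higher; at an unadjusted p under 0.05, 11 were lower and 0 higher. At the low tropifexor dose 1 of 41 was called lower and 3 higher than in tropifexor vehicle, where 5.2% of 16144 genes were called lower and 6.03% higher. At the mid dose 23 of 39 were called lower and 2 higher, where 15.7% of 15686 genes were called lower and 11.8% higher. At the high dose 22 of 40 were called lower and 2 higher, where 15.5% of 15818 genes were called lower and 9.93% higher. The members' median log2 ratio was -0.26 after OCA, 0.26 at the low dose, -1.34 at the mid dose and -1.05 at the high dose, with the median of all tested genes between -0.05 and 0.00. The 3 tropifexor comparisons share 1 vehicle group.

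**Figure D3:**
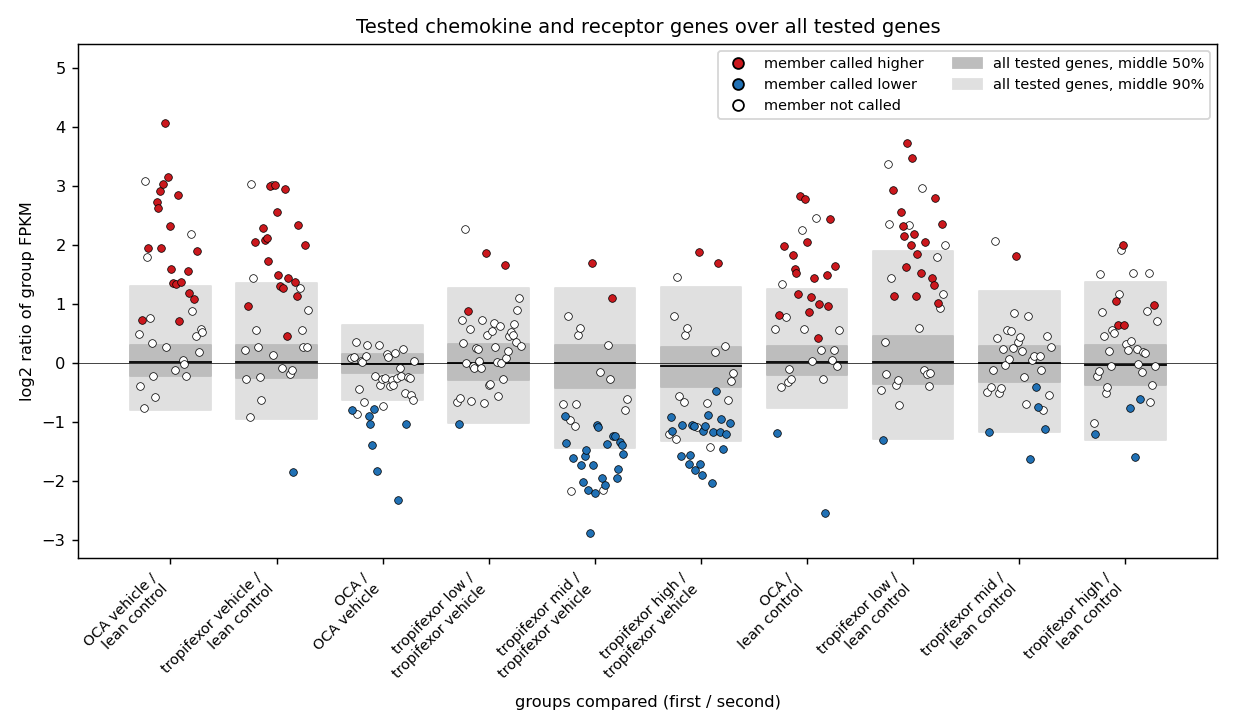
Log2 ratio of group FPKM (y axis) for each tested chemokine or receptor gene in the 10 comparisons (x axis, first group over second); filled points were called higher (red) or lower (blue) and open points were not called. Grey bands hold the middle 50% and 90% of all tested genes and the black line their median; the members sit above the line in both vehicle comparisons with lean control (33 of 40 and 31 of 39 above 0) and below it at the mid and high tropifexor doses (33 of 39 and 32 of 40 below 0).

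Ccl2, Ccl7 and Ccr2 were called higher in each vehicle group against lean control and lower at the mid and high doses against tropifexor vehicle, and Ccl2 rose further at the low dose. Ccl2, the main ligand of CCR2 (ENSMUSG00000035385, chromosome 11, 82035571 to 82037453, build GRCm38), stood at 8.41 FPKM in tropifexor vehicle, 15.4 at the low dose, 2.73 at the mid dose and 2.79 at the high dose. It stood at 7.99 FPKM after OCA, 7.78 in OCA vehicle and 2.03 in lean control. The low-dose group was thus the highest of the 7 and the mid- and high-dose groups were the nearest to lean. Against lean control the log2 ratio was 1.94 (SE 0.20) in OCA vehicle and 2.05 (SE 0.21) in tropifexor vehicle. Against tropifexor vehicle it was 0.88 (SE 0.23) at the low dose, -1.62 (SE 0.21) at the mid dose and -1.58 (SE 0.21) at the high dose, all called. The low-dose rise had q = 0.0033 in the authors' deposited table. After OCA the ratio was 0.03 (SE 0.17), not called.

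Ccl7, another CCR2 ligand encoded beside Ccl2, and Ccr2 itself were also high in both vehicle groups. Ccl7 was at 1.77 FPKM in OCA vehicle against 0.216 in lean control, a log2 ratio of 3.04, and at 1.73 FPKM in tropifexor vehicle against 0.217, both called. It fell by 2.15 at the mid dose and by 1.82 at the high dose on the log2 scale, and its ratios of 0.73 at the low dose and -0.22 after OCA were not called. Ccr2, the receptor that marks inflammatory monocytes, stood at 3.95 FPKM in tropifexor vehicle, 3.05 at the low dose, 0.856 at the mid dose and 1.04 at the high dose, and at 2.78 after OCA, 3.34 in OCA vehicle and 0.671 in lean control. Its log2 ratio against tropifexor vehicle was -0.37 (SE 0.20) at the low dose, not called, and -2.20 (SE 0.17) and -1.91 (SE 0.17) at the mid and high doses, both called. Ccr2 did not follow Ccl2 upward at the low dose.

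Ccl8 had the largest ratio of any member in OCA vehicle against lean control. Its log2 ratio was 4.07 (SE 0.51) in OCA vehicle, at 3.37 FPKM against 0.201 in lean control, and 3.01 in tropifexor vehicle, at 1.63 FPKM, where it missed the threshold with q = 0.113 in the authors' deposited table. The call of Ccl8 in OCA vehicle had a deposited q = 0.0075, weaker than that SE implies. OCA lowered it, to 1.01 FPKM against 3.58 in OCA vehicle, a log2 ratio of -1.82 (SE 0.34). The mid tropifexor dose gave -2.89, called, and the high dose -1.08, not called. Ccl12, a rodent monocyte attractant, was listed at up to 0.78 FPKM and was called in no comparison, although its ratio against lean control was 3.08 in OCA vehicle and 3.04 in tropifexor vehicle.

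Several inflammatory CC ligands were lower after OCA as well as at the mid and high tropifexor doses. Ccl3, Ccl4, Ccl5 and Ccl6 were each called higher in the livers of both vehicle groups than in those of lean control animals. OCA, the mid dose and the high dose each lowered all 4, and none was called at the low dose. Ccl5, a T cell and monocyte attractant, had the highest level among them in OCA vehicle. It stood at 20.2 FPKM in tropifexor vehicle, 20.5 at the low dose, 6.76 at the mid dose and 9.65 at the high dose, and 13.3 after OCA, 34.7 in OCA vehicle and 4.65 in lean control. Its log2 ratio was -1.39 (SE 0.16) after OCA against OCA vehicle. Against tropifexor vehicle it was 0.03 (SE 0.23) at the low dose, -1.57 (SE 0.20) at the mid dose and -1.05 (SE 0.19) at the high dose.

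Ccl3 and Ccl4, the macrophage inflammatory proteins, moved by similar amounts. Ccl3 had log2 ratios of -0.89 after OCA, 0.26 at the low dose, -1.73 at the mid dose and -1.71 at the high dose. Ccl4 had -1.04 after OCA, 0.24 at the low dose, -2.02 at the mid dose and -1.56 at the high dose. Ccl6, a rodent CCR1 ligand, stood at 14.9 FPKM after OCA against 25.6 in OCA vehicle, a log2 ratio of -0.78 (SE 0.14). It was at -0.09 at the low dose, -1.47 at the mid dose and -1.07 at the high dose. None of the 4 ligands overlaps an exon of another gene.

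Ccl9, another rodent CCR1 ligand, rose at every tropifexor dose, unlike the nearby Ccl6. It was not called in either vehicle group, with log2 ratios of 0.27 and 0.14 against lean control. Against tropifexor vehicle it was called higher at every dose, with 156 FPKM at the low dose against 42.9 in vehicle, 121 at the mid dose against 37.6, and 143 at the high dose against 39.1. The log2 ratios were 1.86 (SE 0.38), 1.68 (SE 0.28) and 1.87 (SE 0.28). OCA gave 54.3 FPKM against 43.8 in OCA vehicle, a ratio of 0.31 (SE 0.27), not called. On the lean-control scale, Ccl9 at the high dose reached 136 FPKM, above Cxcl12 at 74.6 FPKM, and it was called higher than in lean control at all 3 doses, with log2 ratios of 1.99, 1.81 and 1.99 from low to high.

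Ccr1, a receptor for several of these ligands, fell at the mid and high doses. It was at 0.631 FPKM in OCA vehicle and 0.0714 in lean control, a log2 ratio of 3.14, and its ratio was -1.72 at the mid dose and -1.71 at the high dose. It was not called after OCA (-0.38) or at the low dose (0.46). Ccl24, a CCR3 ligand that draws eosinophils, had ratios between -0.69 and -0.65 in all 4 drug comparisons and was called in none. Ccl11, Ccl26 and Ccr3 were never tested.

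Neutrophil attractants fell at the mid dose, and Cxcl1 fell below its lean level at the mid and high doses. Cxcl1, a CXCR2 ligand (ENSMUSG00000029380), stood at 12.8 FPKM in tropifexor vehicle, 8.61 at the low dose, 3.04 at the mid dose and 3.10 at the high dose, and at 12.5 after OCA, 15.3 in OCA vehicle and 9.38 in lean control. The mid- and high-dose groups were the lowest of the 7. The log2 ratio was -2.07 (SE 0.18) at the mid dose and -2.03 (SE 0.18) at the high dose against tropifexor vehicle, and -1.63 and -1.59 against lean control, all called. At the low dose it was -0.57 and after OCA -0.30, neither called. Against lean control the rise in the vehicle groups was small, at 0.70 in OCA vehicle and 0.45 in tropifexor vehicle.

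Cxcl2, which shares CXCR2, was at 0.728 FPKM in tropifexor vehicle against 0.144 in lean control, a log2 ratio of 2.34, called. In OCA vehicle the ratio was 2.18 and missed the threshold, with q = 0.052 in the authors' deposited table. Cxcl2 was called lower at the mid dose (-1.94) and at the high dose (-1.45), and the high-dose call was lost when ratios were centred on the median of all genes. Cxcl5, a further ligand of CXCR2, was called at the mid dose only, with 0.142 FPKM against 0.495 in vehicle and a ratio of -1.80; at the high dose it stood at 0.626 against 0.515. The receptors Cxcr1 and Cxcr2 were too low to be tested, with at most 0.0733 and 0.155 FPKM.

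Cxcl9 and Cxcl10, interferon-induced ligands of CXCR3 that draw T cells and NK cells, fell at the mid and high doses. Cxcl10 stood at 15.3 FPKM in tropifexor vehicle, 23.6 at the low dose, 5.92 at the mid dose and 6.72 at the high dose, and at 11.4 after OCA, 14.8 in OCA vehicle and 5.69 in lean control. Its log2 ratio was -1.37 (SE 0.40) at the mid dose and -1.17 (SE 0.35) at the high dose, both called, and 0.62 (SE 0.36) at the low dose and -0.38 (SE 0.26) after OCA, not called. Cxcl9 was at 9.92 FPKM after OCA against 20.3 in OCA vehicle, a ratio of -1.03 (SE 0.31), called. It was called lower at the mid dose (-1.34) and at the high dose (-1.21) too. Cxcl11, annotated as a polymorphic pseudogene in GENCODE, stayed between 1.44 and 2.02 FPKM in these comparisons and was not called. Cxcr3 was called at the mid dose only, with 0.145 FPKM against 0.377 in vehicle and a ratio of -1.38.

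Homeostatic and lymphoid members were less uniform. Cxcl12 was called lower at the high dose, with 78.5 FPKM against 110 in vehicle and a log2 ratio of -0.48 (SE 0.14). Its ratios after OCA (-0.25), at the low dose (-0.28) and at the mid dose (-0.28) were not called. Its receptor Cxcr4 was higher in the vehicle groups than in lean control, with ratios of 1.89 in OCA vehicle and 2.00 in tropifexor vehicle. Cxcr4 was called lower at the mid dose (-1.55) and the high dose (-1.01). Ccr7, which guides dendritic cells and naive T cells, had diet ratios of 1.35 and 1.30 and was called lower at the mid dose (-1.09) and the high dose (-1.06). Ccl19, a ligand of CCR7, was called in no comparison, and Ccl21a, Ccl21b and Ccl21c were listed at 0. Ccl25 and Ccl27a, whose receptors CCR9 and CCR10 were never tested, were not called in any comparison.

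Cxcl13, the B cell attractant that binds CXCR5, changed in opposite directions under the 2 drugs, but the vehicle groups differed as well. It stood at 0.361 FPKM in tropifexor vehicle, 1.14 at the low dose, 0.772 at the mid dose and 1.15 at the high dose. It stood at 0.223 FPKM after OCA, 1.11 in OCA vehicle and 1.29 in lean control. Tropifexor vehicle and OCA were thus the low groups, and the other 5 lay between 0.772 and 1.29 FPKM. The log2 ratio was -2.32 (SE 0.37) after OCA, against 1.66 (SE 0.47), 1.10 (SE 0.34) and 1.70 (SE 0.35) at the low, mid and high tropifexor doses, all called. Against lean control, tropifexor vehicle had -1.84 and OCA -2.54, both called, as was the mid dose at -0.74, while the low and high doses had -0.17 and -0.16, not called.

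The membrane-anchored ligands Cx3cl1 and Cxcl16, which can hold cells on the endothelium, also fell at the mid and high doses. Cx3cl1, or fractalkine, had 0.35 FPKM at the mid dose against 1.35 in vehicle, a log2 ratio of -1.95 (SE 0.31), and 0.764 at the high dose against 1.41, a ratio of -0.88 (SE 0.28). Its receptor Cx3cr1, a marker of monocytes and tissue macrophages, was higher in the vehicle groups than in lean control (2.84 in OCA vehicle and 2.95 in tropifexor vehicle). The Cx3cr1 ratios of -2.15 at the mid dose and -1.42 at the high dose missed the threshold, since the authors' deposited tables gave q = 0.108 and q = 0.105. Cxcl16, the ligand of CXCR6 and also a receptor for oxidized lipoprotein, was at 5.83 FPKM at the mid dose against 13.8 in vehicle and at 7.43 at the high dose against 14.4, with ratios of -1.24 and -0.95. None of these 3 genes was called after OCA or at the low dose. Cxcr6 was not called anywhere.

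The atypical receptors were not uniform. Ackr2, which takes up inflammatory CC chemokines, was the only member called lower in all 4 drug comparisons. It was at 0.515 FPKM after OCA against 0.893 in OCA vehicle, 0.512 at the low dose against 1.05, 0.49 at the mid dose against 0.915 and 0.504 at the high dose against 0.952. The log2 ratios were -0.79, -1.03, -0.90 and -0.92. In OCA vehicle and tropifexor vehicle against lean control they were -0.40 and -0.27, not called. Ackr3, a scavenger of CXCL12, was called higher in both vehicle groups (0.72 and 0.96) and lower at the mid dose (-1.36) and the high dose (-1.16). Ackr1, Ackr4 and Ccrl2 were not called in these comparisons. Cxcl14, a homeostatic attractant of monocytes and dendritic cells, had ratios of 1.55 and 1.36 in the vehicle groups against lean control. Its ratios were -1.24 at the mid dose and -1.17 at the high dose. Ccl22, a CCR4 ligand made by dendritic cells, was called at the high dose only (-1.05), with -1.06 at the mid dose not called.

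**Figure D4:**
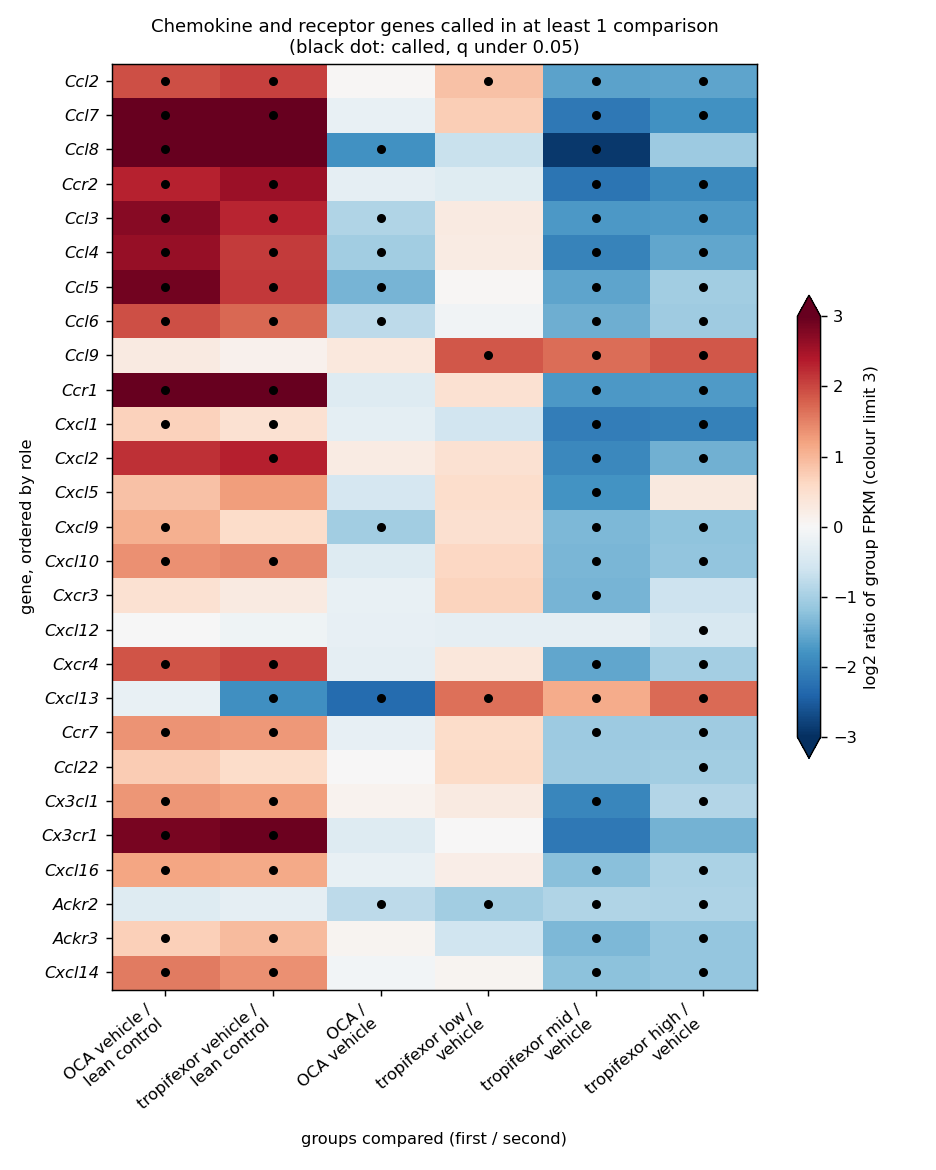
Log2 ratio of group FPKM (colour, limited at 3 in each direction) for 27 of the 28 genes called in at least 1 of 6 comparisons (columns, first group over second), ordered by role; black dots mark calls. The 2 diet columns are mostly red, and the mid- and high-dose columns mostly blue. Among the dotted cells of those 2 dose columns, only Ccl9 and Cxcl13 are red. The low-dose column has 4 dots (Ccl2, Ccl9, Cxcl13 and Ackr2).

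Set against lean control, more members were called higher after OCA and at the low dose than at the mid and high doses. After OCA 18 of 37 tested members were called higher and 2 lower, where 10.3% of 15208 genes were called higher and 6.5% lower; the 2 were Ackr2 and Cxcl13. At the low dose 19 of 40 were called higher and 1, Ackr2, lower, where 13.8% of 15937 genes were called higher and 10.1% lower. At the mid dose 1 of 34 was called higher and 5 lower, where 11.7% of 15229 genes were called higher and 11.5% lower. At the high dose 5 of 38 were called higher and 4 lower, where 12.2% of 15443 genes were called higher and 15.2% lower. The members' median ratio was 0.86 after OCA, and 1.48, 0.06 and 0.23 at the low, mid and high doses. These 4 comparisons share the lean control group.

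Against lean control at the high dose, 13.2% of tested members were called higher and 10.5% lower, near the 12.2% and 15.2% of all genes. At the mid dose 2.94% were called higher and 14.7% lower, against 11.7% and 11.5% of all genes. At the mid dose the 1 higher member was Ccl9, and the 5 lower were Cxcl1 (-1.63), Ackr2 (-1.17), Cxcr3 (-1.13), Cxcl13 (-0.74) and Cxcl12 (-0.40). At the high dose the higher members were Ccl9 (1.99), Ccl5 (1.06), Cxcr4 (0.98), Ccl6 (0.64) and Ccr2 (0.63). The lower were Cxcl1 (-1.59), Ackr2 (-1.20), Ccrl2 (-0.77) and Cxcl12 (-0.62). Cxcl1, Cxcl12 and Ackr2 therefore ended below the lean level at both doses. At the low dose Ccl7 (3.72), Ccr1 (3.47) and Ccl2 (2.92) stood farther from lean than any other called member.

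The difference between the effects was tested directly, with the error implied by the deposited statistic, which is about 2.03 to 2.05 times wider than the deposited p assumes, and again with the error rescaled by that factor. Mid against low dose was compared after the values had been seen. Ccl2 was called with the wider error, at -2.49 (95% interval -3.10 to -1.88 with the rescaled error), as 1 of 39 members, where 0.423% of 15368 genes were called. With the rescaled error 20 members were called, all lower at the mid dose, where 10.3% of genes were called; they included Ccl7 (-2.88), Ccl4 (-2.25), Cx3cl1 (-2.21), Ccr1 (-2.19), Cxcl10 (-1.99), Ccr2 (-1.83) and Ccl5 (-1.60). Ccl9 (-0.17, interval -1.10 to 0.76) and Ackr2 (0.13, interval -0.59 to 0.85) were not called. High against low dose gave Ccl2 alone of 40 with the wider error, where 0.278% of 15467 genes were called. Its difference was -2.45 (interval -3.71 to -1.20 with the wider error). With the rescaled error 17 were called, where 5.63% of genes were called.

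Between the mid and high doses the share of members called was near that of all genes. With the wider error 0 of 39 members were called and 1 had an unadjusted p under 0.05, where 0.319% of 15374 genes were called, and with the rescaled error 1 did, where 2.32% were called. That member was Cxcl5, 2.09 higher at the high dose (interval 1.09 to 3.08), and the call was lost (0 members) when genes under 1 FPKM were left out. This comparison was also added after the values had been seen. A difference that was not called does not show that the 2 doses act alike. For Ccl2 the difference was 0.04, with an interval from -0.54 to 0.62 by the rescaled error.

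High-dose tropifexor and OCA, compared at unequal doses and each against its own vehicle, differed at 3 of 39 members with the wider error, where 1.69% of 15206 genes were called. By the wider error, Cxcl13 differed by 4.02 (interval 2.01 to 6.03), Cxcl1 by -1.73 (-2.66 to -0.80) and Ccr2 by -1.64 (-2.50 to -0.77). With the rescaled error 10 members were called, where 11.4% of genes were called. The others were Ccl2 (-1.61), Ccl7 (-1.60), Ccr1 (-1.33), Ackr3 (-1.25), Cxcl14 (-1.09) and Cxcl16 (-0.73), each lower under tropifexor, and Ccl9 (1.56), higher. No difference was called for Ccl5 (0.34, interval -0.15 to 0.83), Ccl6 (-0.30, interval -0.70 to 0.11), Ccl4 (-0.52, interval -1.25 to 0.20) or Ccl3 (-0.82, interval -1.58 to -0.06). The intervals of these uncalled genes are from the rescaled error. Ackr2, lower under both drugs, differed by -0.12.

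The diet effect was also compared between the vehicle groups. With the wider error 0 of 39 members were called and 1 had an unadjusted p under 0.05, where 0.0985% of 15230 genes were called. With the rescaled error only Cxcl13 was called, at -1.62 (interval -2.41 to -0.83), lower in tropifexor vehicle than in OCA vehicle, where 0.381% of genes were called. The opposite directions of Cxcl13 under the 2 drugs stand beside this gap between the vehicles; its part in them was not tested. Of the 39 differences, 28 were below 0. Ccl5 (-0.78, interval -1.33 to -0.24) and Ccl8 (-1.05, interval -2.51 to 0.40), both lowered by OCA, were not called. A difference that was not called does not show that the vehicle groups were alike.

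**Figure D5:**
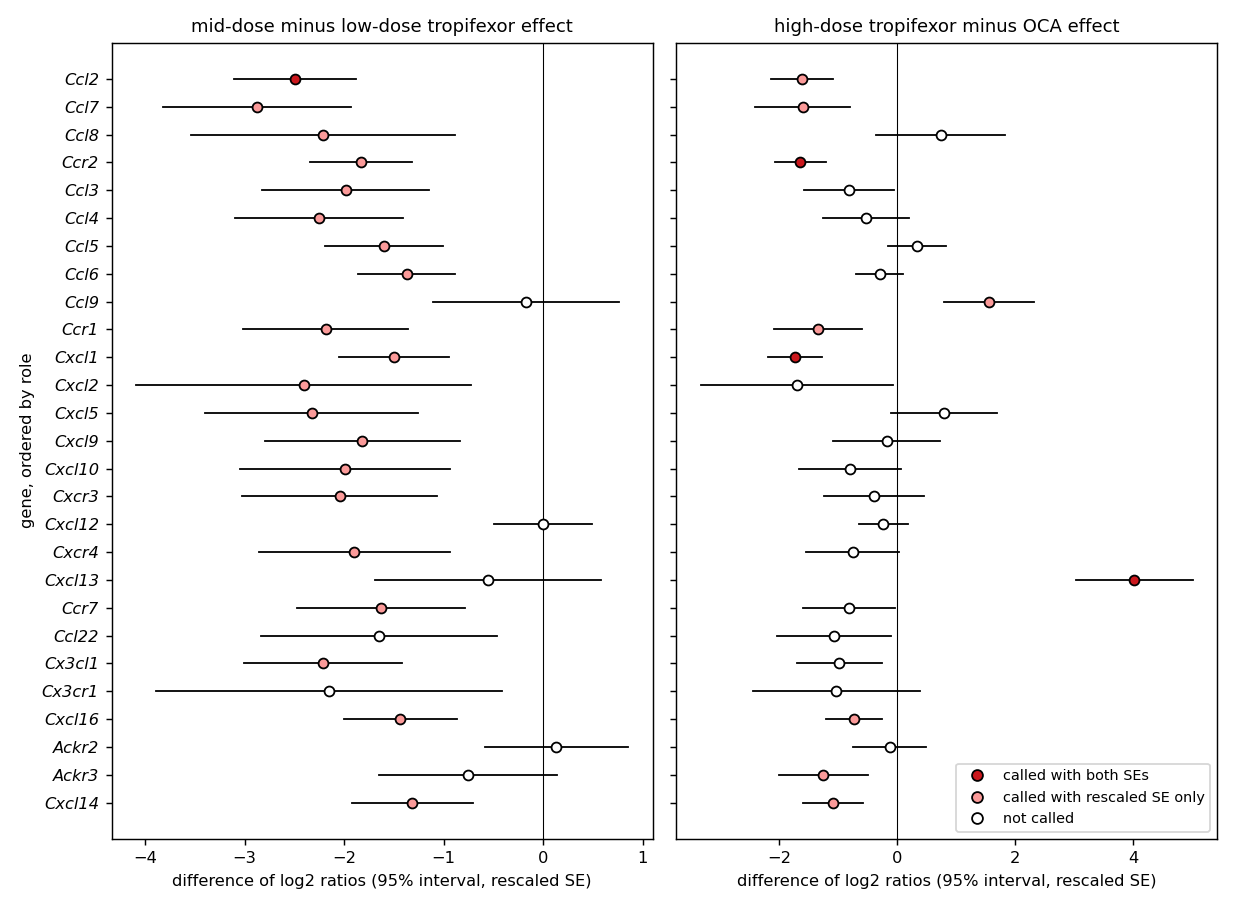
Difference of log2 ratios (x axis) with its 95% interval from the rescaled error for genes called in at least 1 comparison and tested in both tables, for mid minus low tropifexor dose (left) and high-dose tropifexor minus OCA (right). Ccl2 is called with both errors on the left; Ccr2, Cxcl1 and Cxcl13 are on the right, where Ccl9 and Cxcl13 lie to the right of 0 and the other called genes to the left.

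Genes that act below chemokine receptors were also higher in the vehicle groups and lower at the mid and high doses. Of 20 such genes, 14 were called higher in OCA vehicle and 15 in tropifexor vehicle than in lean control. Over all tested genes, 11.4% and 12.1% were called higher there. OCA lowered 4 (Itgal, Itgb2, Fermt3 and Rac2), the low dose 0 of 20 (2 lower and 0 higher at an unadjusted p under 0.05), the mid dose 14 and the high dose 10. Of all tested genes, 2.23% were called lower after OCA and 5.2%, 15.7% and 15.5% at the low, mid and high doses. The median log2 ratio of the 20 was -0.32 after OCA, 0.00 at the low dose, -1.09 at the mid dose and -0.69 at the high dose. Itgb2, the shared chain of leukocyte integrins, had log2 ratios of -0.60 after OCA, 0.21 at the low dose, -1.54 at the mid dose and -0.94 at the high dose. Rac2, a GTPase of blood cells, had -0.80, -0.09, -1.39 and -1.04 in the same order. The largest falls were of Was, an actin regulator of blood cells (-1.61 at the mid dose and -1.25 at the high dose), and Rgs1, which dampens chemokine receptor signals (-1.60 and -1.16).

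In a list of chemokine inducers and NF-kappaB path genes, 3 rose at the low dose and 6 or more fell at the mid and high doses. The list also holds Nfkbia and Tnfaip3, which restrain NF-kappaB, so its counts and medians mix inducers with inhibitors. Of its 16 tested genes, 8 were called higher in OCA vehicle and 10 in tropifexor vehicle than in lean control. Over all tested genes those shares were 11.4% and 12.1%. OCA called 0 (3 lower and 0 higher at an unadjusted p under 0.05). At the low dose 3 were called higher: Ltb (1.05), which activates the alternative NF-kappaB path, and the subunits of that path Relb (1.01) and Nfkb2 (0.86). The mid dose lowered 8 and raised 2, and the high dose lowered 6. Over all tested genes, 6.03% were called higher at the low dose. At the mid dose 15.7% were called lower and 11.8% higher, and at the high dose 15.5% lower. The median ratio of the tested genes of the list was -0.03 after OCA, 0.45 at the low dose, -0.64 at the mid dose and -0.31 at the high dose. Tnf, at 0.227 FPKM at the mid dose against 0.683 in vehicle and 0.273 at the high dose against 0.711, had ratios of -1.59 and -1.38. Tnfaip3, an NF-kappaB-induced brake on that path, had -1.15 at the mid dose and -0.55 at the high dose, both called. Irf7 (0.66) and Jun (0.75) were the 2 raised at the mid dose. Ifng, Il6, Il17a and Lta were never tested in these comparisons.

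Among 10 chemokine-like genes outside the naming rule, the chemerin gene Rarres2 rose in all 4 drug comparisons. It was called higher after OCA (0.62) and at the low (0.85), mid (1.39) and high (1.53) doses, and in neither vehicle group against lean control. The gene of its receptor, Cmklr1, singled out after its values were seen, was called lower at the mid dose (-1.08) and the high dose (-0.58). The complement receptor gene C5ar1, which draws neutrophils and monocytes to C5a, was called higher in both vehicle groups (1.97 and 2.13) and lower at the mid dose (-2.15) and the high dose (-1.88). Platelet factor Pf4, a CXC chemokine by structure, had diet ratios of 1.37 in OCA vehicle and 1.88 in tropifexor vehicle and fell by 1.42 at the mid dose and by 1.01 at the high dose on the log2 scale. In all, 6 of the 10 were called lower and 1 higher at the mid dose, 5 lower and 2 higher (Rarres2 and Mif, at 0.43) at the high dose, 1 lower and 1 higher after OCA, and 1 higher at the low dose. In OCA vehicle 6 of 10 were called higher, and in tropifexor vehicle 7 of 9, where 11.4% and 12.1% of all genes were called higher. At the mid and high doses 15.7% and 15.5% of all genes were called lower, and 11.8% and 9.93% higher. After OCA 2.23% were called lower and 1.81% higher, and at the low dose 6.03% higher.

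Markers of monocytes and macrophages were mostly called higher in the vehicle groups and lower at the mid and high doses. The 8 monocyte and macrophage markers summed to 272 FPKM in tropifexor vehicle, 313 at the low dose, 124 at the mid dose and 173 at the high dose, and to 216 after OCA, 277 in OCA vehicle and 101 in lean control. Of these, 7 were called higher in OCA vehicle and 6 in tropifexor vehicle than in lean control; OCA lowered 2, the low dose raised Ly6c2 (1.16) and lowered 1, the mid dose lowered 8 and the high dose 6. Their median log2 ratio was -0.51 after OCA, -0.10 at the low dose, -1.16 at the mid dose and -0.81 at the high dose. All 4 markers of lipid-associated macrophages were called higher in each vehicle group and lower at the mid and high doses, with sums of 216, 308, 81.0 and 125 FPKM from tropifexor vehicle to the high dose, and 228 after OCA, 165 in OCA vehicle and 45.7 in lean control. Among these markers Spp1, also made by bile duct cells, held most of the sum, with 255 FPKM at the low dose against 165 in tropifexor vehicle, and was the 1 called higher at the low dose (0.63) and after OCA (0.61). Trem2, at 9.59 FPKM at the low dose against 11.8 in tropifexor vehicle, and Gpnmb, at 15.1 against 18.6, were not called there. Of 5 Kupffer cell markers, OCA lowered 3, the low dose 1, the mid dose 3 and the high dose 1, with a sum of 125 FPKM after OCA against 207 in OCA vehicle. Over all tested genes, 2.23% were called lower after OCA and 5.2%, 15.7% and 15.5% at the low, mid and high doses. The 1 Kupffer cell call at the high dose is near that share. In OCA vehicle and tropifexor vehicle 11.4% and 12.1% of all genes were called higher.

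T cell and NK cell markers included calls after OCA. Of 7 T cell markers, OCA lowered 5, the mid dose 5, the high dose 4 and the low dose 0, and their sum was 5.83 FPKM after OCA against 10.7 in OCA vehicle. At the low dose 0 T cell markers were called or had an unadjusted p under 0.05. The T cell sum was 6.91 FPKM in tropifexor vehicle, 9.02 at the low dose, 3.10 at the mid dose and 5.92 at the high dose, and 3.79 in lean control. Cd3g held most of the high-dose sum, at 3.71 FPKM against 2.61 in tropifexor vehicle, and was not called there. The other T cell markers were each lower at the high dose than in tropifexor vehicle. NK cell markers were lowered after OCA (2 of 4 tested), at the mid dose (3 of 4) and at the high dose (1 of 4). Of 5 tested dendritic cell markers, a list that holds the member Xcr1, 4 were lowered at the mid dose and 1 at the high dose. Of 4 tested neutrophil markers 3 were lowered at the mid dose and 0 at the high dose (3 at an unadjusted p under 0.05), and Ly6g was listed at 0 in 4 of the 7 groups. Of the B and plasma cell markers, 1 was lowered at the low dose and 1 at the mid dose. Against lean control, the OCA vehicle and tropifexor vehicle groups had 5 and 4 T cell markers called higher, 2 and 2 NK cell markers, 2 and 3 dendritic cell markers, 3 and 2 neutrophil markers and 0 and 1 B and plasma cell markers. The shares of all genes called higher in those groups were 11.4% and 12.1%. Called lower were 2.23% of all genes after OCA and 5.2%, 15.7% and 15.5% at the low, mid and high doses.

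Markers of resident liver cells also differed between the groups. At the low dose 3 of 4 bile duct cell markers were called higher, and their sum was 6.87 FPKM in tropifexor vehicle, 17.3 at the low dose, 4.54 at the mid dose and 6.90 at the high dose, and 9.29 after OCA, 6.94 in OCA vehicle and 7.23 in lean control. Stellate cell markers were lowered at the mid dose (4 of 5), the high dose (4) and the low dose (2), and endothelial markers at the mid dose (4 of 5), the high dose (3), the low dose (1) and after OCA (2). Of 5 hepatocyte markers, 1 was called higher and 1 lower at the mid dose and 1 higher and 2 lower at the high dose, with 2 lower at the low dose. Over all tested genes, 11.8% were called higher and 15.7% lower at the mid dose, and 9.93% and 15.5% at the high dose. Single calls among 5 markers at those doses are near these shares. At the low dose 6.03% were called higher and 5.2% lower, and after OCA 2.23% lower. The part of any cell type's abundance in the chemokine and receptor values was not tested.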

How the data were processed

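Liver RNA of 28 mice was sequenced after Trizol extraction and TruSeq stranded mRNA library preparation, per the labels' protocols. STAR 2.5.1b, Cufflinks 2.2.1, Cuffdiff, Cuffnorm, bcl2fastq and build GRCm38 are listed, without order or role, per the submitters' processing notes. The authors deposited 10 tables of pairwise comparisons, each with 1 FPKM per group of 4 animals; groups summed to between 706031 and 915996 FPKM. The depth per animal is unknown. The deposited log2 fold change and test statistic were read as a score, and the deposited p-value and q-value are the authors' Cuffdiff output, per the file headers. A call needed the status OK and a deposited q under 0.05, which equals the authors' own flag in all 10 tables.

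Log2 ratios were computed here from the 2 FPKM of a table with no pseudocount and no filter beyond the authors' status. The error implied by ratio and statistic was divided by 2.03 to 2.05, the median of the normal z of the deposited p over the statistic, to give the rescaled SE; for genes under 1 FPKM the deposited q does not always follow it. Differences of effects were tested with a normal test, variances added and Benjamini-Hochberg adjustment over all genes tested in both tables; where a control group is shared, its error is counted again. This step was tested on simulated data, drawn with the rescaled error and with independent errors for the compared effects. Such data cannot show which error is right or what a shared control group does. Each drug table's vehicle column was matched to 1 of the vehicle groups by its values, after scaling. The replicates are separate animals of a group per the labels.

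The members and the lists of signalling, inducer and cell type genes were chosen with earlier results of these data known. Named with values are all members called in a vehicle or drug-against-vehicle comparison, those of highest level, and of each list up to 4 called genes with the largest ratios in a comparison; Ccl12, Ccl24, Cxcl11, Ccrl2, Ly6c2, Spp1, Trem2, Gpnmb and Mif were added after their values were seen. Some genes that enter the counts and sums are not reported here by name. Python 3.11.15, numpy 2.4.6, pandas 2.3.3 and scipy 1.17.1 were used, with exon overlaps from GENCODE M21 and promoters from RefSeq. Alternatives were a q under 0.01, a minimum FPKM of 1, pseudocounts of 0.1 and 1, centring on the median gene, the rescaled error and, added after seeing the data, leaving out genes with overlapping exons and the differences between mid and the other doses.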

Additional observations from a re-analysis of the deposited data

How the results depend on the processing

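No paired analysis was possible because the tables hold 1 value per group and none per animal, and for the same reason no animal could be left out. Counts of called members kept within 1.5 times of the values above in all 10 comparisons with a minimum FPKM of 1, with centring on the median gene and without the members whose exons overlap another gene. With q under 0.01, OCA called 5 members rather than 8 and the low tropifexor dose 2 rather than 4. The difference counts depended on the error. With the rescaled error the calls were 10 for high dose against OCA, 17 for high against low, 20 for mid against low, 1 for high against mid and 1 for the diet effect between vehicles. With a minimum FPKM of 1 and that error they were 8, 15 and 16 for the first 3, 0 for high against mid and 1 for the diet effect. Of 101 single calls, a pseudocount of 0.1 moved 11 ratios and a pseudocount of 1 moved 73 by more than 1 SE; centring ended 1 call, Cxcl2 at the high dose, and no call reversed. Members under 1 FPKM, most receptors among them, have little signal, and a change there could be missed.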
